A study of Mus musculus with 8 samples.

Results

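Cytochromes P450 of families 1 to 4 are haem-containing monooxygenases of the endoplasmic reticulum, and the genes described here are those of the mouse kidney. A gene was taken when its symbol begins with Cyp, a family number from 1 to 4 and a subfamily letter, when it is not a pseudogene, and when its counts summed to at least 80 over all 8 libraries. This gave 34 genes of 77 symbols in these families, out of 37583 genes listed: 2 of family 1, 18 of family 2, 1 of family 3 and 13 of family 4. They fall into 16 subfamilies, of which 10 have a single member. The remaining 43 symbols had fewer counts, and 16 of them had 0 counts in all 8 libraries. Just inside the threshold were Cyp3a13 with 129 and Cyp2b9 with 110 counts, and just outside were Cyp2c69 with 63 and Cyp2r1 with 60. All 34 genes also passed the filter on low counts of the fit.

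RNA of whole mouse kidneys was sequenced in 8 libraries. The 4 libraries labelled knockout carry the genotype Six2Cre+TFAP2Afl/flTFAP2Bfl/WT: a Cre recombinase driven by Six2, a gene of nephron progenitors, with both alleles of Tfap2a and 1 allele of Tfap2b floxed. The 4 libraries labelled wildtype came from control littermates, given only as WT, so whether these carry Cre or a floxed allele is not stated. Six2-driven Cre acts in the nephron lineage and not in vessels, stroma or the collecting duct, while the RNA came from the whole organ. The labels give neither age nor sex, and do not say that each library is a separate animal, so a p-value here sets a difference against the spread among libraries, which may be technical. The unit is CPM, the counts of a gene set against the scaled total of its library. A group is given as mean ± SD of its 4 libraries, and a log2 difference, with its standard error (SE), is positive where the knockout label is higher.

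A P450 receives electrons from P450 reductase, the product of Por, and in part from cytochrome b5, and inserts an oxygen atom into its substrate. Family 1 enzymes oxidize aromatic compounds and are induced through the aryl hydrocarbon receptor. Family 2 holds enzymes for drugs, steroids and unsaturated fatty acids, including the Cyp2j and Cyp2c epoxygenases of arachidonic acid. Family 4 enzymes hydroxylate the far end of fatty acids, and in the kidney the Cyp4a products of arachidonic acid act on vessel tone and salt transport. In mice, the proximal tubule carries most of these transcripts, several depend on androgens, and Cyp4a10 and Cyp4a14 are well-known targets of the fatty acid receptor PPAR alpha.

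Gene counts totalled 13871861 to 16629301 per library, and the P450 genes took 142402 to 224249 of them, or 0.903% to 1.44%. In the shallowest library a floor of 3 counts, which covers counting error only, equals 0.223 CPM. The targeted genes were not lower in the libraries labelled knockout: Tfap2a stood at 5.05 ± 0.990 CPM there and 4.22 ± 1.08 CPM in wildtype (SD, n = 4), and Tfap2b at 79.97 ± 20.3 and 78.3 ± 20.5 CPM. A count over the whole gene need not drop when floxed exons are removed, but counts by exon were not examined. The labels are kept as given, and whether the floxed exons were lost was not tested. Xist stood at 0.569 to 1.0 CPM and the Y-linked Ddx3y at 72.1 to 92.3 CPM in every library, the pattern of male tissue. Of 10 liver markers, 8 stayed below 10 CPM in every library, among them Alb at 2.32 to 6.38 CPM and Cps1 with no more than 0.258 CPM. The other two were Apob, at 107 to 176 CPM, and Ttr, for which knockout 1 and 2 and wildtype 2 and 3 stood apart, at 71.9, 114, 71.9 and 45.8 CPM against at most 1.27 CPM elsewhere. Knockout 2 and wildtype 1 stood apart in adrenal cortex genes, with Star at 349.6 and 335 CPM against at most 6.15 CPM elsewhere. Knockout 2 and knockout 4 stood apart in heat shock genes, with Hspa1b at 175 and 363 CPM against at most 41.4 CPM elsewhere. Knockout 1 stood apart in red cell genes, with Hbb-bs at 4772 CPM against at most 818 CPM elsewhere.

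Levels are compared between genes per kilobase of exon. Cyp4b1 was the most abundant, at 2242 CPM per kilobase over all 8 libraries, followed by Cyp2e1 at 1038 and Cyp2j5 at 867. Cyp3a13 was the lowest, at 0.359 CPM per kilobase. On the CPM scale, the leading 3 genes made up 78.8% of the reads of these 34 genes. A mean of at least 100 CPM was reached by 9 genes, and one of at least 1 CPM by 33. Between neighbours in the order of levels per kilobase, the ranges over the 8 libraries overlapped in 29 of 33 pairs. The 4 pairs whose ranges did not overlap were Cyp4b1 and Cyp2e1, Cyp2j5 and Cyp2a4, Cyp2j6 and Cyp4f13, and Cyp1b1 and Cyp2s1. Cyp2c, a leading subfamily of liver, was nearly silent: only Cyp2c23 passed 80 counts, and the 14 others had at most 63 counts each over all libraries. The 8 Cyp3a symbols besides Cyp3a13 had at most 8 counts each.

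**Figure D1:**
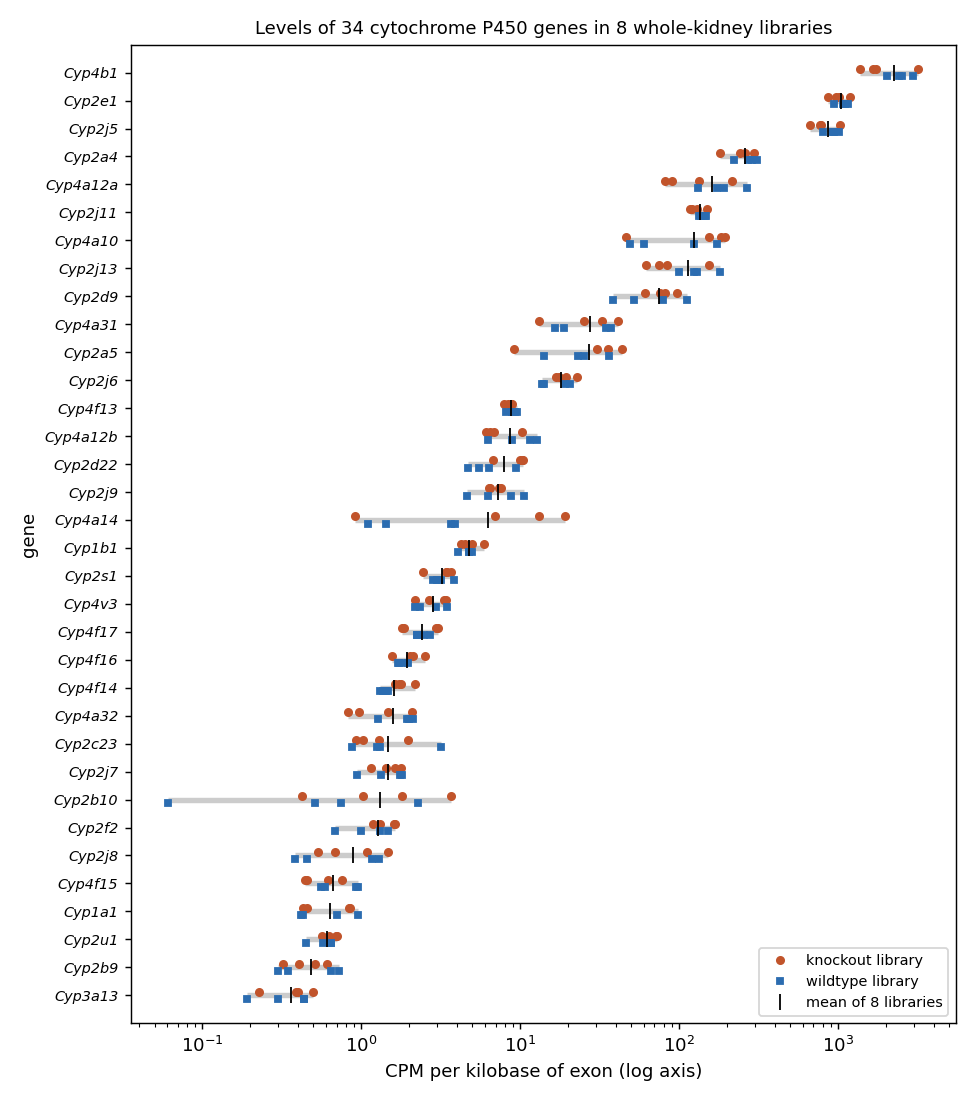
Levels of the 34 P450 genes in CPM per kilobase of exon (log axis), 1 point per library, with knockout libraries as circles, wildtype libraries as squares, grey bars from the lowest to the highest library and a tick at the mean of 8. Cyp4b1, Cyp2e1 and Cyp2j5 lead, and Cyp4a14 and Cyp2b10 have the widest bars.

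No P450 gene differed between the genotype labels past the threshold. With edgeR's quasi-likelihood test and Benjamini-Hochberg adjustment over 14433 genes, 0 of 34 were higher and 0 were lower at an adjusted p of 0.05, where the background was 0.0% of all genes tested, and the smallest adjusted p among the 34 was 0.957. DESeq2 and limma-voom also called 0 of the 34, where DESeq2 called 0.0163% and limma-voom 0.0% of the genes they tested. At an unadjusted p under 0.05, edgeR gave 3 of 34 genes, or 8.82%, against 4.0% of all genes. DESeq2 and limma-voom gave 2 each, against 715 of 24562 and 586 of 14433 genes tested. The 3 from edgeR were Cyp2d22, Cyp4a14 and Cyp4f14, all higher in the libraries labelled knockout. Of all genes, 2.17% were higher and 1.84% lower at that p. Leaving out knockout 3 raised the number of P450 genes to 7, while all genes rose from 578 of 14433 to 1252 of 14678. The number of P450 genes was 0 without knockout 1, knockout 4, wildtype 2, wildtype 3 or wildtype 4. In those fits 462, 536, 343, 414 and 403 of all genes were under that p. One gene, Cyp4f14, had groups that did not overlap, against 1.97% of all genes (1.03% higher and 0.942% lower in knockout). The log2 difference was above 0 for 19 genes, or 55.9%, against 51.3% of all genes, and its median was 0.05 against 0.01 for all genes. For 23 of the 34 genes the 95% interval excluded a 2-fold difference in both directions, as it did for 86.5% of all genes; for the other 11 it did not.

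**Figure D2:**
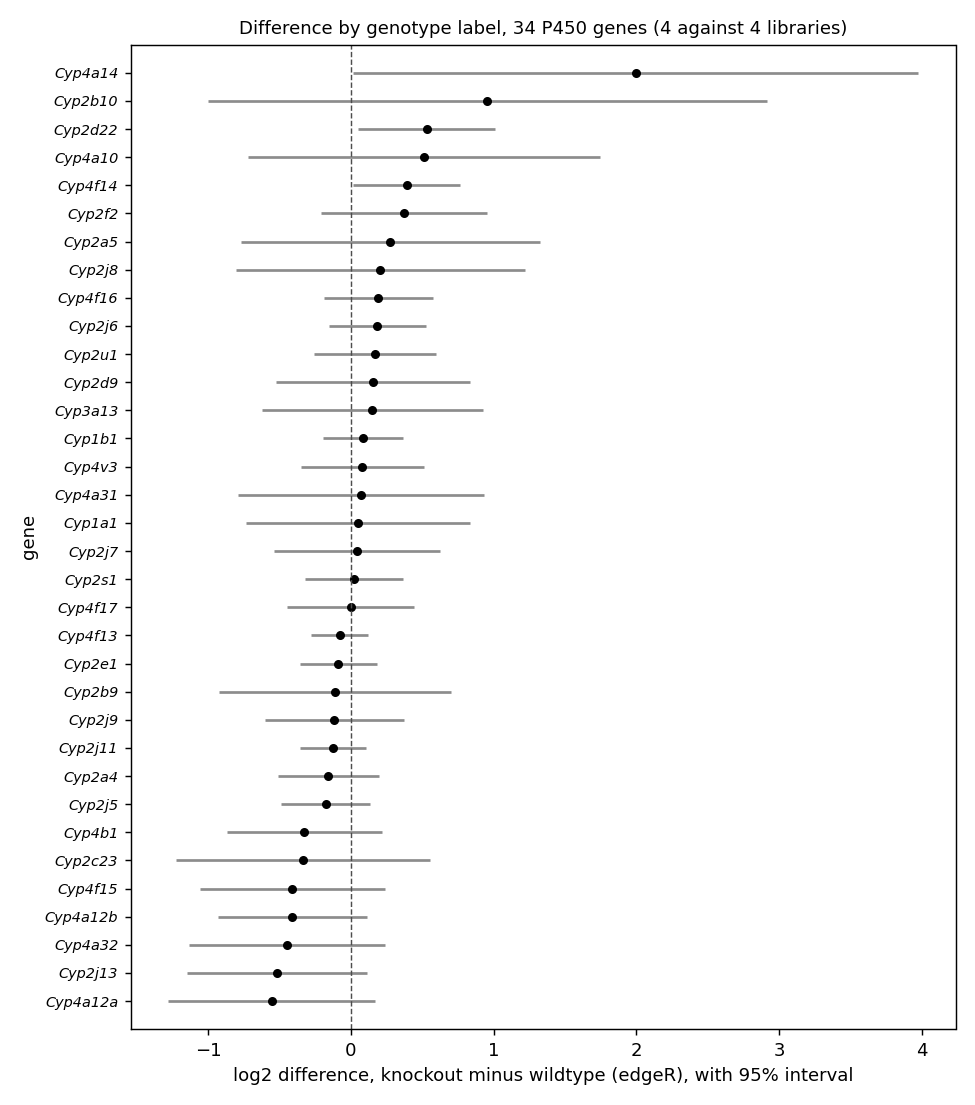
Log2 difference between the genotype labels for each of the 34 P450 genes (points), with 95% intervals (lines), from edgeR. Differences run from -0.55 for Cyp4a12a to 1.99 for Cyp4a14; the intervals of Cyp4a14, Cyp2d22 and Cyp4f14 lie just above 0, and those of Cyp4a14 and Cyp2b10 are the widest.

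What the P450 genes showed instead was spread between libraries of the same label. The median SD of log2 CPM within groups was 0.38 for the 34 genes and 0.23 for all genes tested, and 26 of the 34 lay above the median of all genes. The median ratio of the highest to the lowest library was 2.25 for the P450 genes and 1.6 for all genes with counts in every library. In 20 of the 34 genes this ratio exceeded 2, and in 4 it was under 1.5. Summed over all 34 genes, the level was 9034, 9906, 14868 and 9991 CPM in knockout 1 to 4 and 11695, 14038, 12329.8 and 12814 CPM in wildtype 1 to 4. Knockout 3 was the highest of all and the other 3 knockout libraries were the lowest, so the groups overlapped. None of the 16 subfamily sums separated the labels: 9 had the higher mean in knockout, 7 had the lower, and all 16 overlapped.

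**Figure D3:**
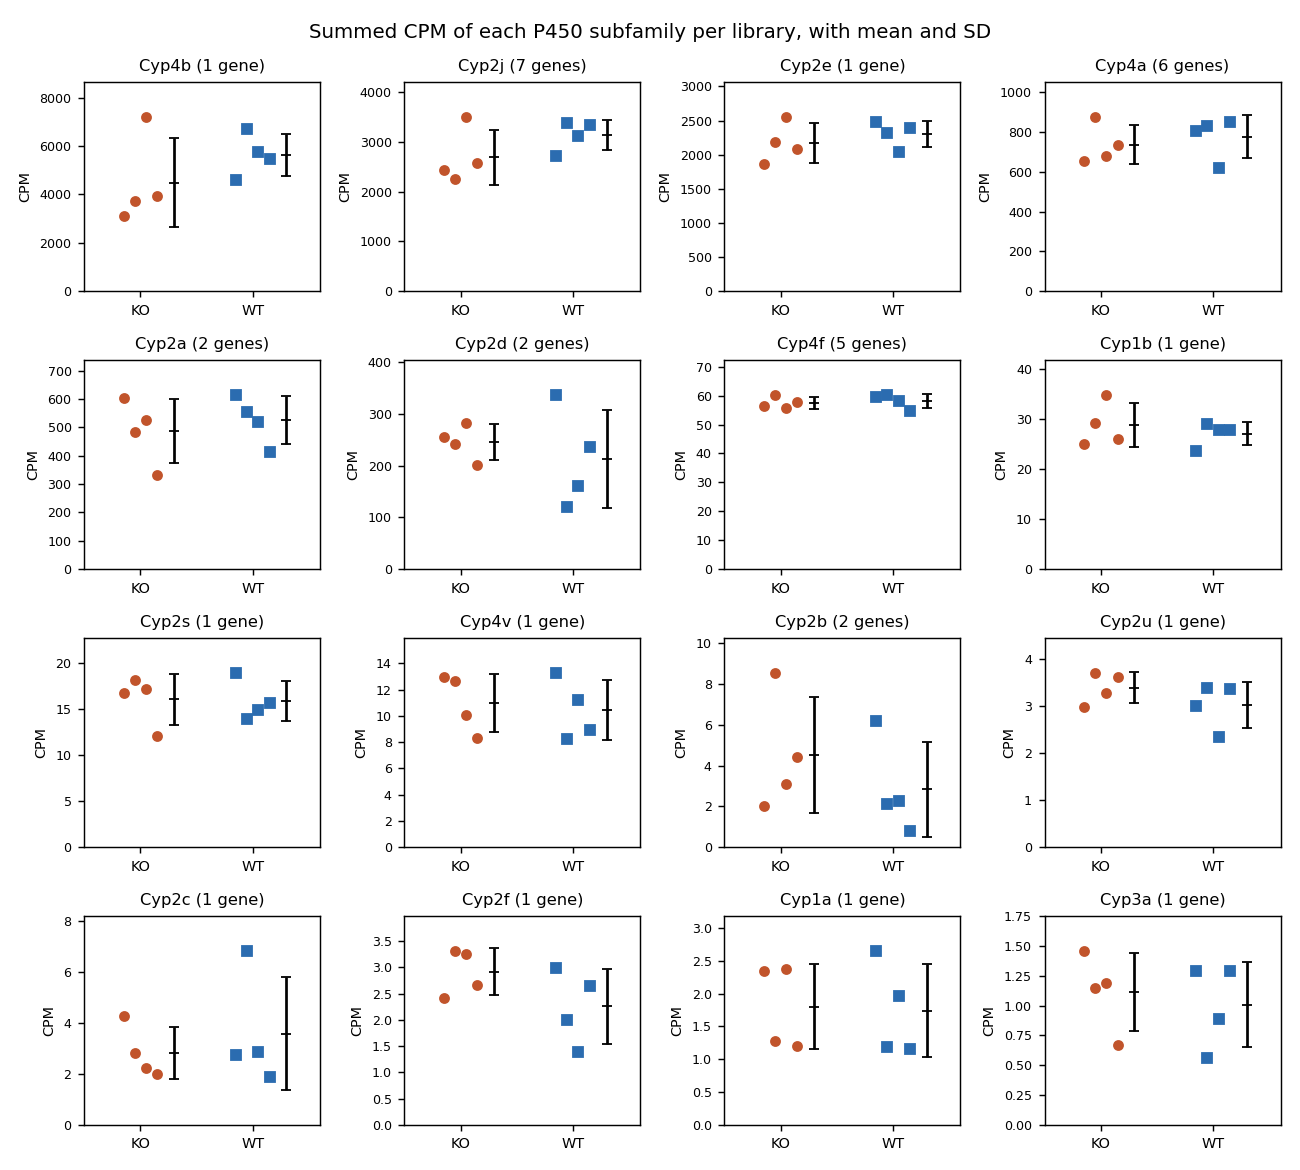
Summed CPM of the members of each of the 16 P450 subfamilies, 1 point per library, with mean and SD (n = 4) beside the points; each panel has its own axis from 0. The groups overlap in every panel, and the Cyp4f sum varies least.

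Cyp4b1 (ENSMUSG00000028713; chromosome 4, 115624725 to 115647723 on GRCm38), which hydroxylates fatty acids and activates some furans and aromatic amines, carried 42.7% of the summed P450 level. It stood at 3099, 3723, 7197 and 3938 CPM in knockout 1 to 4 and 4597, 6704, 5743 and 5465 CPM in wildtype 1 to 4. Knockout 3 was the highest of the 8 libraries, while knockout 1, knockout 2, knockout 4 and wildtype 1 were the 4 lowest. The group values were 4489 ± 1839.8 CPM in knockout and 5627 ± 868 CPM in wildtype (SD, n = 4), and the log2 difference was -0.33 (SE 0.24), unadjusted p 0.21 and adjusted p 0.957 with edgeR. The size rested on single libraries: the log2 difference was -0.65 without knockout 3 (unadjusted p 0.00129, adjusted p 0.299 in edgeR), -0.18 without knockout 1 (unadjusted p 0.461) and -0.13 without knockout 2 and 4 (unadjusted p 0.694).

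The same 4 libraries were the lowest for 5 other P450 genes. Cyp2j13, a kidney member of the epoxygenase subfamily, stood at 291, 349, 719 and 394 CPM in knockout 1 to 4 and 467, 849, 584 and 608 CPM in wildtype 1 to 4. Cyp4a12a, the main arachidonic acid omega-hydroxylase of the male mouse kidney, stood at 217, 323, 519.6 and 199 CPM in knockout 1 to 4 and 317, 651, 417 and 464 CPM in wildtype 1 to 4. Each gene had wildtype 2 as its highest library and knockout 3 above 3 of the 4 wildtype libraries, so the labels overlapped. Cyp4a12b, a near-identical neighbour of Cyp4a12a, stood at 15.5, 16.4, 24.6 and 14.5 CPM in knockout 1 to 4 and 15.0, 30.5, 21.2 and 27.6 CPM in wildtype 1 to 4. The log2 differences were -0.52 (SE 0.28) for Cyp2j13, -0.55 (SE 0.32) for Cyp4a12a and -0.41 (SE 0.23) for Cyp4a12b, with unadjusted p of 0.0974, 0.117 and 0.11 and adjusted p of 0.957 each in edgeR. Without knockout 3 they were -0.86, -0.91 and -0.61, with adjusted p of 0.299, 0.378 and 0.503 in edgeR. They shrank to -0.34, -0.34 and -0.26 without wildtype 2, to -0.31, -0.33 and -0.24 without knockout 2 and 4, and Cyp4a12b to -0.24 without knockout 4 and wildtype 4. Cyp4a12a and Cyp4a12b share 48.9% and 49.4% of their 50-base transcript windows, so reads of 1 could be lost or set aside for the other, and the split between them is uncertain. Their ratio within a library was 14.0, 19.7, 21.2 and 13.7 in knockout 1 to 4 and 21.2, 21.3, 19.7 and 16.8 in wildtype 1 to 4.

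Cyp2j5 and Cyp2j11 had these 4 lowest libraries too, with a narrower range. Cyp2j5, the most abundant kidney epoxygenase of arachidonic acid in this set, stood at 1806, 1573, 2405 and 1846 CPM in knockout 1 to 4 and 1889, 2204, 2158 and 2375 CPM in wildtype 1 to 4, a highest-to-lowest ratio of 1.53. Cyp2j11 stood at 223, 231, 286 and 250.1 CPM in knockout 1 to 4 and 257, 264, 278 and 283 CPM in wildtype 1 to 4, a ratio of 1.28 and the second-narrowest among the 34. The log2 differences were -0.18 (SE 0.14) and -0.13 (SE 0.10), with 95% intervals of -0.49 to 0.14 and -0.36 to 0.10. In all, 6 of 34 P450 genes, or 17.6%, had exactly knockout 1, 2 and 4 and wildtype 1 as their lowest libraries, against 6.96% of all genes tested. This arrangement was chosen after the values of the P450 genes were seen, so its share is a description.

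Among genes outside the P450s, 4 of 11 androgen-dependent kidney genes had the same 4 lowest libraries: Odc1, Slco1a1, Acsm3 and Hsd17b11. Another 2 of the 11 went the other way, with knockout 3, wildtype 2 and wildtype 3 as their lowest libraries. Odc1, the polyamine synthesis enzyme ornithine decarboxylase, stood at 101, 179, 395 and 168 CPM in knockout 1 to 4 and 253, 715, 342 and 456 CPM in wildtype 1 to 4. Kap, the androgen-regulated kidney protein and the most abundant gene of that list, stood at 41373, 36507, 51769 and 26083 CPM in knockout 1 to 4 and 51832, 42979, 44144 and 37399 CPM in wildtype 1 to 4 and did not have this order. None of the 11 passed the test with edgeR (1 had an unadjusted p under 0.05, against 4.0% of all genes). Of the 11, 9 were below 0, with a median of -0.18. Among markers of the straight part of the proximal tubule, 5 of 10 had the same 4 lowest libraries, and the list summed to 41923 to 72803 CPM in the libraries labelled knockout and 56578 to 70988 CPM in those labelled wildtype, most of it Kap, which is also in the androgen list. None of its 10 genes passed the test, 8 were below 0, and 1, the transporter gene Slc7a13, had an unadjusted p under 0.05, at 0.007. In RNA of whole tissue, fewer cells of a type and less RNA per cell cannot be told apart. The part of the straight proximal tubule and of androgen-dependent expression in the levels of these P450 genes was not tested.

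The neighbours Cyp4a10, Cyp4a14 and Cyp4a31 had the opposite order, with knockout 3, wildtype 2 and wildtype 3 as their lowest libraries. All Cyp4a genes and Cyp4b1 lie in one cluster on chromosome 4, which spans 349 kb of GRCm38 from the start of Cyp4a12a to the end of Cyp4b1. Cyp4a10 (ENSMUSG00000066072; chromosome 4, 115518264 to 115533649), a fatty acid omega-hydroxylase, stood at 325, 411, 98.3 and 389.5 CPM in knockout 1 to 4 and 365, 104, 126 and 263 CPM in wildtype 1 to 4. Its ratio of highest to lowest library was 4.18, and its log2 difference was 0.51 (SE 0.53), with a 95% interval of -0.72 to 1.74. Leaving out knockout 2 and knockout 4, the libraries high in heat shock genes, gave -0.02.

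Cyp4a14 (ENSMUSG00000028715; chromosome 4, 115486200 to 115496142), a fatty acid hydroxylase whose gene begins the other way round 22.1 kb from Cyp4a10, had the largest log2 difference of the 34. It stood at 34, 18.2, 2.37 and 49.9 CPM in knockout 1 to 4 and 10.1, 2.88, 3.73 and 9.56 CPM in wildtype 1 to 4. Knockout 4, 1 and 2 were the 3 highest libraries and knockout 3 was the lowest of all, below every wildtype library. The group values were 26.1 ± 20.5 CPM in knockout and 6.58 ± 3.80 CPM in wildtype (SD, n = 4). The log2 difference was 1.99 (SE 0.84), with a 95% interval of 0.01 to 3.97, an unadjusted p of 0.0487 and an adjusted p of 0.957 in edgeR. It kept its sign when any 1 library was left out, from 1.48 without knockout 4 to 2.37 without knockout 3, and its adjusted p in the alternatives ran from 0.299 to 1.00. Cyp4a14 shares 0.235% of its transcript windows with any other gene, so copies bear little on its count.

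Cyp4a31 stood at 63.6, 104, 32.9 and 81.8 CPM in knockout 1 to 4 and 94.0, 41.3, 47.5 and 86.4 CPM in wildtype 1 to 4, with a log2 difference of 0.07 (SE 0.38). It shares 20.6% of its windows with other genes, and Cyp4a10 shares 29.8%, mostly with Cyp4a32. Cyp4a32 was low, at 1.27, 3.19, 1.48 and 2.27 CPM in knockout 1 to 4 and 3.06, 3.26, 1.96 and 2.97 CPM in wildtype 1 to 4, and shares 43.8% of its windows, so its level is uncertain.

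The sum of the 6 Cyp4a genes hid this opposition. It stood at 656, 875, 679 and 737 CPM in knockout 1 to 4 and 804, 832, 618 and 853 CPM in wildtype 1 to 4, a highest-to-lowest ratio of 1.42. The sum of Cyp4a10, Cyp4a14 and Cyp4a31 stood at 422, 533, 134 and 521 in knockout 1 to 4 and 469, 148, 178 and 359 in wildtype 1 to 4 CPM, a ratio of 3.99. The sum of Cyp4a12a and Cyp4a12b stood at 233, 339, 544 and 213 in knockout 1 to 4 and 332, 681, 438 and 491 in wildtype 1 to 4 CPM, a ratio of 3.19. The first sum was lowest in knockout 3 and wildtype 2, and the second was highest in those same libraries. Within a library, where no scaling between libraries enters, the ratio of Cyp4a10 to Cyp4a12a was 1.5, 1.27, 0.189 and 1.96 in knockout 1 to 4 and 1.15, 0.160, 0.303 and 0.567 in wildtype 1 to 4. That ratio ranged 12.3-fold and overlapped between the labels, with knockout 3 and wildtype 2 lowest. Cyp4a12a over Cyp2j13, genes with the same 4 lowest libraries, ranged 1.83-fold. Both ratios were chosen after these orders were seen, so the contrast between them is a description.

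**Figure D4:**
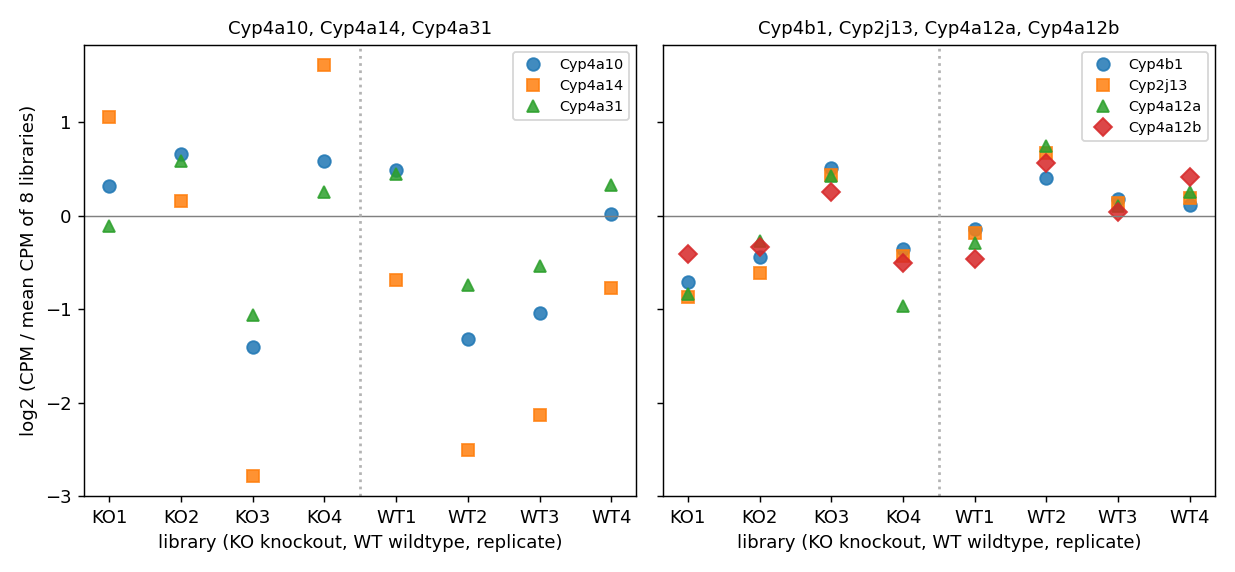
CPM of each gene relative to its mean over 8 libraries, on a log2 scale, by library; left, Cyp4a10, Cyp4a14 and Cyp4a31, and right, Cyp4b1, Cyp2j13, Cyp4a12a and Cyp4a12b. In knockout 3, wildtype 2 and wildtype 3 the left-hand genes lie below 0 and the right-hand genes above it, and both labels hold such libraries.

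Of the 34 P450 genes, 3, or 8.82%, had exactly knockout 3, wildtype 2 and wildtype 3 as their lowest libraries, against 5.15% of all genes tested. This order was taken from the levels of those same 3 genes, so the share is a description. Of 16 tested PPAR alpha target genes outside the P450s, 10 had this order, among them Acaa1b, Pdk4, Acot1, Acot2, Angptl4, Vnn1, Hadha, Slc25a20 and Cidea. Pdk4, a kinase that holds back glucose oxidation in fasting, stood at 42.6, 74.6, 16.3 and 89.1 CPM in knockout 1 to 4 and 63.8, 25.5, 21.7 and 54.3 CPM in wildtype 1 to 4, lowest in knockout 3, wildtype 2 and wildtype 3. The remaining 6 of the 16 did not share the order. None of the 16 passed the test with edgeR (2 had an unadjusted p under 0.05, against 4.0% of all genes). Of the 16, 10 were above 0, with a median of 0.17. Ppara itself stood at 20.6, 36.8, 30.0 and 46.4 CPM in knockout 1 to 4 and 33.8, 48.8, 29.5 and 33.7 CPM in wildtype 1 to 4. Adipose, red cell and urothelial markers moved with the same libraries: the order held for 7 of 9 adipose, 3 of 4 red cell and 4 of 6 urothelial genes tested. Cfd, an adipose marker, stood at 249, 247, 47.4 and 175 CPM in knockout 1 to 4 and 223, 76.4, 47.2 and 115 CPM in wildtype 1 to 4. The adipose list summed to 1320.2 to 1872 CPM in the libraries labelled knockout and 1578 to 2289.7 CPM in those labelled wildtype, most of it Lpl, which kidney cells also express; the red cell list summed to 192 to 7720.0 CPM in the libraries labelled knockout and 116 to 1309 CPM in those labelled wildtype, and the urothelial list to 25.5 to 46.8 CPM in the libraries labelled knockout and 14.7 to 42.9 CPM in those labelled wildtype. No gene of these 3 lists was at 0 in all libraries. The part of these tissues in the Cyp4a10, Cyp4a14 and Cyp4a31 levels was not tested.

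Cyp2a4 and Cyp2a5, a pair of steroid and coumarin hydroxylases on chromosome 7, were lowest in a different pair of libraries, knockout 4 and wildtype 4. In mouse liver and kidney both are known as targets of DBP, a clock-controlled transcription factor of the proline and acid rich family, which binds a motif called the D-box. Their promoters are shown because both hold this motif, together with that of Cyp2b10, which also holds it but had another pattern of levels. Each is the 250 bases before the RefSeq start site on GRCm38.p6, 5′ to 3′ on the gene's strand, and capitals mark the D-box match, TTATGCAA read on the opposite strand.
Cyp2a4, chr7:26306942-26307191 (+): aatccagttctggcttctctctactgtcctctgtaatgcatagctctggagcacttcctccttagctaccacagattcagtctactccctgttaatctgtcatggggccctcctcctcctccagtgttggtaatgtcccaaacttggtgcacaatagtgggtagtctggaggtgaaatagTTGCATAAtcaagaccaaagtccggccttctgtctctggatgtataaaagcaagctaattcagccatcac
Cyp2a5, chr7:26835089-26835338 (+): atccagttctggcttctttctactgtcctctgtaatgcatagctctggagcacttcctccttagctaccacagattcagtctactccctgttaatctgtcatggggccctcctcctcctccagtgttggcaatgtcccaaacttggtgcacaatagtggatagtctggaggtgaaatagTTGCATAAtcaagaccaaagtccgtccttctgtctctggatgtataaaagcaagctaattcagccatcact
Cyp2b10, chr7:25897408-25897657 (+): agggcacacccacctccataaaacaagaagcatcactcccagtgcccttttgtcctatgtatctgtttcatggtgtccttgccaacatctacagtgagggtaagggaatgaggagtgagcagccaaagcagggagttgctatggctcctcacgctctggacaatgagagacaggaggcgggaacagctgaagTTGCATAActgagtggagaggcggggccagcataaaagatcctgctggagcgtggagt

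The promoters of Cyp2a4 and Cyp2a5 were identical in 245 of 251 aligned columns, or 97.6%, with 4 mismatches and 2 gap columns. The first base of the match lies at -70 in Cyp2a4, -71 in Cyp2a5 and -58 in Cyp2b10, counted from the start site. The motifs searched, on both strands, were TTATGCAA, TTATGTAA and TTACGTAA; no place can match more than 1 of them. TTATGCAA was present in 228 of 32851 promoters of this length, or 0.694%, TTATGTAA in 0.819% and TTACGTAA in 0.113%. Of the 34 P450 genes, 24 had a promoter in the table, and TTATGCAA was present in 4: Cyp2a4, Cyp2a5, Cyp2b10 and Cyp4f14. Neither of the other motifs was present in any of the 24. The motifs were chosen after the levels were seen, and a match is a description of the sequence, not a binding site.

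Cyp2a5 (ENSMUSG00000005547; chromosome 7, 26835305 to 26843548) stood at 90.3, 63.4, 74.0 and 18.8 CPM in knockout 1 to 4 and 74.6, 52.6, 47.6 and 29.1 CPM in wildtype 1 to 4. Knockout 4 and wildtype 4 were the lowest in their groups and of all 8, and the remaining 6 libraries lay between 47.6 and 90.3 CPM. Cyp2a4 (ENSMUSG00000074254; chromosome 7, 26307169 to 26315088) stood at 513, 420.2, 453 and 314 CPM in knockout 1 to 4 and 539, 503, 471 and 384 CPM in wildtype 1 to 4, with the same lowest pair and a narrower range. The highest library was 4.79-fold above the lowest for Cyp2a5 and 1.72-fold for Cyp2a4. Log2 differences were 0.28 (SE 0.46) and -0.16 (SE 0.16), and both 95% intervals covered 0, from -0.77 to 1.32 and from -0.51 to 0.20. The ratio of Cyp2a5 to Cyp2a4 within a library was 0.176, 0.151, 0.163 and 0.0601 in knockout 1 to 4 and 0.138, 0.105, 0.101 and 0.0756 in wildtype 1 to 4, again lowest in knockout 4 and wildtype 4. The pair shares sequence, 38.0% of the windows of Cyp2a4 and 37.0% of those of Cyp2a5, so part of the reads of each was set aside as not unique.

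Dbp itself stood at 62.2, 80.5, 128 and 18.0 CPM in knockout 1 to 4 and 104, 82.8, 133 and 34.1 CPM in wildtype 1 to 4, with knockout 4 and wildtype 4 again lowest. Arntl, the core clock activator, stood at 5.20, 5.68, 2.0 and 24.3 CPM in knockout 1 to 4 and 2.59, 6.76, 1.77 and 20.4 CPM in wildtype 1 to 4, highest in that pair. Of 19 clock and proline and acid rich genes, 8 had knockout 4 and wildtype 4 as the lowest libraries: Dbp, Tef, Per2, Per3, Cry2, Nr1d2, Rora and Ciart. The same held for 5 of 34 P450 genes, or 14.7%, against 4.58% of all genes tested, namely Cyp2a4, Cyp2a5, Cyp4f13, Cyp2c23 and Cyp2j7. The margin was small outside the Cyp2a genes. In Cyp4f13 wildtype 4 stood at 36.3 CPM and the next library, knockout 1, at 37.4 CPM. In Cyp2c23 knockout 4 stood at 2.00 CPM and the next, knockout 3, at 2.23 CPM, on 30 counts each. In Cyp2j7 knockout 4 stood at 1.74 CPM and the next, wildtype 2, at 2.00 CPM, on 26 and 32 counts. Knockout 4 and wildtype 4 were chosen as a pair after the values were seen, so these shares are a description. Among the other 6 libraries Cyp2a5 did not follow the order of Dbp: knockout 1 had the highest Cyp2a5 and the lowest Dbp of the 6. Cyp2b10, with the same motif, was not low in knockout 4, at 3.81 CPM, but was lowest in wildtype 4, at 0.129 CPM on 2 counts. Cyp4f14, which also holds the motif, was highest in knockout 4 and lowest in wildtype 4, at 5.28 and 3.16 CPM. The labels do not give the time of collection, and its part in the Cyp2a levels was not tested.

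**Figure D5:**
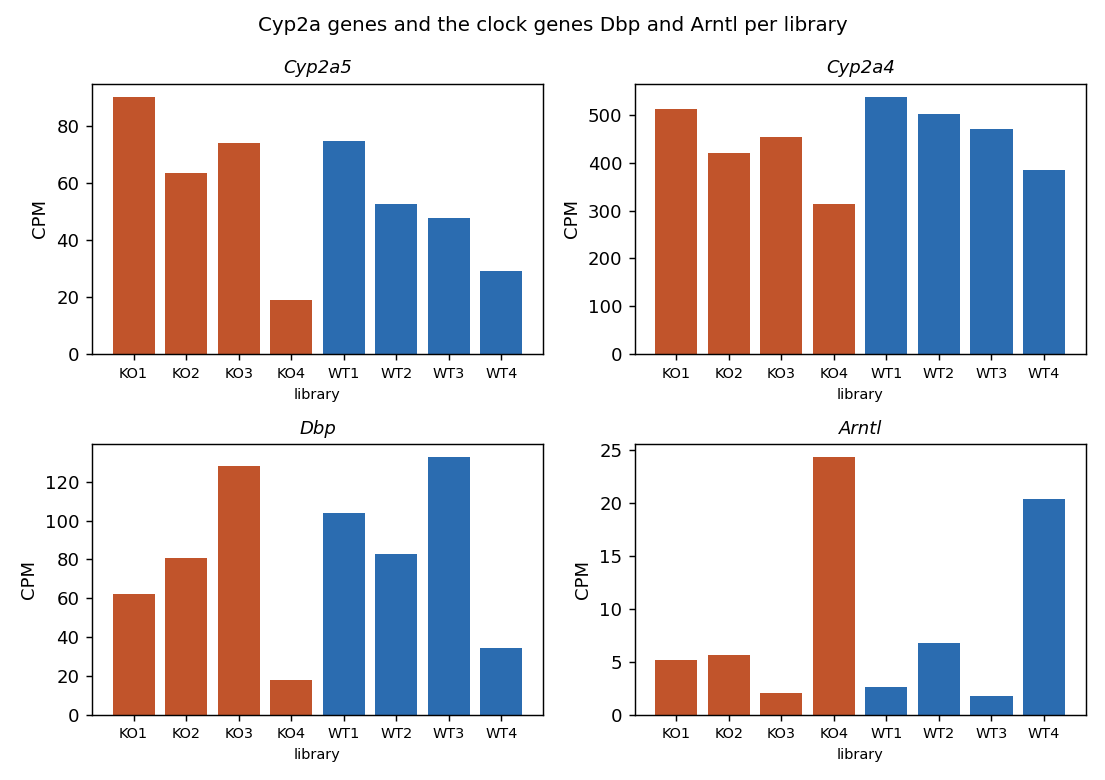
CPM of Cyp2a5, Cyp2a4, Dbp and Arntl in each of the 8 libraries (bars from 0, knockout libraries first). Cyp2a5, Cyp2a4 and Dbp are lowest in knockout 4 and wildtype 4, where Arntl is highest, at 24.3 and 20.4 CPM.

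Cyp2e1 (ENSMUSG00000025479; chromosome 7, 140763739 to 140774987), which oxidizes ethanol and other small molecules, was abundant and even. It stood at 1862, 2188, 2550.4 and 2089 CPM in knockout 1 to 4 and 2483, 2315, 2045 and 2389 CPM in wildtype 1 to 4, a highest-to-lowest ratio of 1.37. The log2 difference was -0.09 (SE 0.12) with a 95% interval of -0.36 to 0.18, so a difference as large as 2-fold lies outside the interval. It carried 18.9% of the summed P450 level.

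Of the 34 genes, Cyp2d22 had the lowest unadjusted p and Cyp2d9, of the same subfamily, was not among the 3 genes under 0.05. Cyp2d22 (ENSMUSG00000061740; chromosome 15, 82370527 to 82380260), a mouse relative of the human drug-metabolizing CYP2D6, stood at 40.2, 40.4, 26.3 and 39.2 CPM in knockout 1 to 4 and 36.6, 18.2, 21.4 and 24.9 CPM in wildtype 1 to 4. Knockout 1, 2 and 4 lay together above every wildtype library, while knockout 3 lay among the wildtype values. The group values were 36.5 ± 6.86 CPM in knockout and 25.3 ± 8.03 CPM in wildtype (SD, n = 4), and the log2 difference was 0.53 (SE 0.22), with an unadjusted p of 0.0335 and an adjusted p of 0.957 in edgeR. It ran from 0.40 without wildtype 2 to 0.77 without wildtype 1. Cyp2d9, a testosterone hydroxylase with a male pattern in liver and kidney, stood at 216, 201, 257 and 162 CPM in knockout 1 to 4 and 300.0, 101, 139 and 210.4 CPM in wildtype 1 to 4. Wildtype 1 was highest and wildtype 2 lowest, and the sign of its log2 difference, 0.16 (SE 0.30), turned to -0.05 without wildtype 2. Cyp2d9 shares 21.8% of its windows with other genes and overlaps exons of others, so its level is uncertain.

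Cyp2b10, a gene that xenobiotics induce in liver through the receptor CAR, had the widest range of all. It stood at 0.888, 7.78, 2.15 and 3.81 CPM in knockout 1 to 4 and 4.83, 1.57, 1.07 and 0.129 CPM in wildtype 1 to 4. Knockout 2 and wildtype 1, the libraries with adrenal genes, were the highest, and wildtype 4 the lowest, with 122, 71 and 2 counts. Knockout 2 over wildtype 4 was a ratio of 60.3, with a counting interval of 16.3 to 503 (95%, exact binomial). The log2 difference was 0.96 (SE 0.86), became 1.98 without wildtype 1 and 0.27 without knockout 2, and was -0.33 without knockout 2 and knockout 4. The order of knockout 2 and wildtype 1 highest also held for Cyp4a31 and Cyp2s1, in all 3 of 34 P450 genes or 8.82%, against 5.81% of all genes. This order was chosen with values of these data known, so its share is a description. It held for 6 of 6 adrenal cortex genes tested, whose list summed to 24.7 to 1052 CPM in the libraries labelled knockout and 16.8 to 993 CPM in those labelled wildtype. The part of adrenal tissue in the Cyp2b10 level was not tested; without both libraries the log2 difference was 1.30. Cyp2b9, at 0.563 to 1.36 CPM, was near the count threshold.

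Cyp2c23, the kidney arachidonic acid epoxygenase also known as Cyp2c44, was low in this set. It stood at 4.25, 2.81, 2.23 and 2.0 CPM in knockout 1 to 4 and 2.72, 6.82, 2.84 and 1.87 CPM in wildtype 1 to 4. Wildtype 2 alone was far above the rest, and the log2 difference of -0.33 (SE 0.40) became 0.19 without it. Cyp2s1, Cyp2f2 and Cyp2u1 are also single members of their subfamilies, and each had a smaller ratio of highest to lowest library than Cyp2c23. Cyp2s1, which epithelia express, stood at 16.7, 18.2, 17.2 and 12.0 CPM in knockout 1 to 4 and 18.9, 13.9, 14.9 and 15.6 CPM in wildtype 1 to 4, Cyp2f2, known from the airway, at 2.41, 3.32, 3.27 and 2.67 CPM in knockout 1 to 4 and 2.99, 2.0, 1.39 and 2.65 CPM in wildtype 1 to 4, and Cyp2u1, a fatty acid hydroxylase, at 2.98, 3.70, 3.27 and 3.61 CPM in knockout 1 to 4 and 2.99, 3.38, 2.34 and 3.36 CPM in wildtype 1 to 4. Their log2 differences were 0.02 (SE 0.16), 0.37 (SE 0.26) and 0.17 (SE 0.19), none past the threshold, and all 3 genes overlap exons of another gene in counts made without strand. Cyp2j8, the least abundant member of its subfamily, stood at 1.65, 2.23, 1.04 and 0.802 CPM in knockout 1 to 4 and 1.77, 0.689, 1.96 and 0.581 CPM in wildtype 1 to 4, with a log2 difference of 0.20 (SE 0.46). The remaining Cyp2j genes, Cyp2j6, Cyp2j7 and Cyp2j9, had log2 differences of 0.18 (SE 0.15), 0.04 (SE 0.26) and -0.12 (SE 0.22).

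Family 1 was represented by Cyp1b1 and Cyp1a1. Cyp1b1, which acts on oestrogens and is found in vessel and stromal cells, stood at 24.9, 29.2, 34.8 and 26.1 CPM in knockout 1 to 4 and 23.7, 29.0, 27.7 and 27.9 CPM in wildtype 1 to 4, and its highest library was 1.47-fold above its lowest. Cyp1a1, the classical aryl hydrocarbon receptor target, stood at 2.35, 1.28, 2.37 and 1.20 CPM in knockout 1 to 4 and 2.65, 1.19, 1.96 and 1.16 CPM in wildtype 1 to 4. In both groups its libraries lay either between 1.16 and 1.28 CPM or between 1.96 and 2.65 CPM, on 18 to 39 counts per library. The log2 differences were 0.08 (SE 0.13) and 0.05 (SE 0.36). Of 9 tested targets of the receptor outside the P450s, none passed the test with edgeR (0 at an unadjusted p under 0.05), 6 were above 0, and Ahr itself stood at 12.3 to 14.1 CPM over all libraries. Cyp1a2 had 1 count in all. Cyp3a13, the only member of family 3, stood at 1.46, 1.15, 1.19 and 0.668 CPM in knockout 1 to 4 and 1.29, 0.563, 0.885 and 1.29 CPM in wildtype 1 to 4, on 9 to 23 counts per library, with a log2 difference of 0.15 (SE 0.35).

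The Cyp4f subfamily, whose enzymes inactivate leukotrienes and hydroxylate long fatty acids, was the steadiest. Its 5 genes on chromosome 17 summed to 56.3, 60.1, 55.6 and 57.9 CPM in knockout 1 to 4 and 59.7, 60.2, 58.2 and 54.7 CPM in wildtype 1 to 4, a highest-to-lowest ratio of 1.10, the lowest of the 16 subfamilies. The groups were 57.5 ± 2.01 and 58.2 ± 2.48 CPM (SD, n = 4). Cyp4f13 made up most of the sum, at 37.4, 38.9, 39.6 and 35.0 CPM in knockout 1 to 4 and 41.4, 42.3, 39.4 and 36.3 CPM in wildtype 1 to 4, and its ratio of 1.21 was the lowest of the 34 genes. Cyp4f14 (ENSMUSG00000024292; chromosome 17, 32905070 to 32917342) stood at 4.31, 3.96, 4.16 and 5.28 CPM in knockout 1 to 4 and 3.47, 3.32, 3.54 and 3.16 CPM in wildtype 1 to 4. All 4 knockout libraries lay above all 4 wildtype libraries, on 49 to 79 counts per library. Its log2 difference was 0.39 (SE 0.17) with a 95% interval of 0.02 to 0.77, an unadjusted p of 0.0428 and an adjusted p of 0.957 in edgeR, and the share of all genes with knockout libraries wholly above was 1.03%. The other members, Cyp4f15, Cyp4f16 and Cyp4f17, had log2 differences of -0.41 (SE 0.29), 0.19 (SE 0.17) and -0.00 (SE 0.20), and Cyp4f16 shares 17.4% of its windows, mostly with Cyp4f37. Cyp4v3, a fatty acid hydroxylase whose human counterpart is mutated in a crystalline eye disease, stood at 12.9, 12.6, 10.1 and 8.29 CPM in knockout 1 to 4 and 13.3, 8.26, 11.2 and 8.91 CPM in wildtype 1 to 4, with a log2 difference of 0.08 (SE 0.20); its exons overlap another gene.

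The partners of the P450 enzymes showed no called difference either. Of 15 genes for electron donors and haem supply, 0 were called by edgeR (2 at an unadjusted p under 0.05). For this and the lists below, the share of all genes under that p was 4.0%. Of the 15, 9 were above 0, and the median log2 difference was 0.03. Over all lists used here, limma-voom called 0 genes and DESeq2 called 1, Lpl of the adipose list. Por stood at 454, 435, 544 and 347 CPM in knockout 1 to 4 and 419, 622, 440.1 and 416 CPM in wildtype 1 to 4, with knockout 4 and wildtype 4 lowest, as for 5 of these 15 genes. Alas1, which starts haem synthesis, stood at 192, 201, 184 and 343 CPM in knockout 1 to 4 and 178, 185, 162 and 145 CPM in wildtype 1 to 4, with a log2 difference of 0.46 (SE 0.19) and an unadjusted p of 0.0384; knockout 4 alone was above the other 7 libraries. Blvrb, a biliverdin reductase, stood at 22.0, 14.6, 16.4 and 13.2 CPM in knockout 1 to 4 and 34.4, 25.6, 26.8 and 14.0 CPM in wildtype 1 to 4, with a log2 difference of -0.61 (SE 0.25). Of 23 tested receptors and factors that control P450 genes, 0 were called (1 at an unadjusted p under 0.05), 10 were above 0 and the median was -0.08. Ghr, the growth hormone receptor, stood at 1130.3, 1101, 1098 and 1217 CPM in knockout 1 to 4 and 1264, 1346, 1289 and 1255 CPM in wildtype 1 to 4. Its groups did not overlap, and its log2 difference was -0.18 (SE 0.09). Of all genes tested, 0.942% had every knockout library below every wildtype library. Esr1, an oestrogen receptor, had a log2 difference of -0.40 (SE 0.18). Of 17 tested genes for arachidonic acid and epoxide handling, 0 were called (2 at an unadjusted p under 0.05), 11 were above 0 and the median was 0.11. Ephx2, the hydrolase that removes the epoxides made by Cyp2j and Cyp2c enzymes, stood at 571, 564, 746 and 457 CPM in knockout 1 to 4 and 777, 726, 644 and 674 CPM in wildtype 1 to 4. Fmo1, a flavin monooxygenase that shares substrates with P450s, stood at 562, 675, 731 and 556 CPM in knockout 1 to 4 and 768, 692, 767 and 820.4 CPM in wildtype 1 to 4, and Ptgds, a prostaglandin D synthase, at 16.4, 11.5, 6.01 and 10.2 CPM in knockout 1 to 4 and 7.62, 2.69, 5.50 and 4.20 CPM in wildtype 1 to 4, the lowest unadjusted p of the list at 0.00808.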

How the data were processed

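Each library has its own deposited file of raw read counts by gene identifier. Per the submitters' processing notes, STAR, HTSeq and edgeR were used with mm9; versions and annotation were not given in the sources used here. Counting ignored strand, as the deposited names state. Lines without a gene entered neither library sizes nor tests: reads outside genes were 11.6% to 16.2%, ambiguous reads 2.05% to 2.31% and non-unique reads 15.8% to 20.9% of all lines' counts. Symbols, positions, exon lengths and shared transcript windows of 50 bases came from GENCODE M21 on GRCm38, by identifier, and matched 32860 of 37583 genes; no coordinate was converted. Promoters came from RefSeq on GRCm38.p6.

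Genotype labels were compared in R 4.3.3 with edgeR 4.0.16 (quasi-likelihood F test, two-sided), robust, with TMM scaling, default filterByExpr (minimum count 10, minimum total 15), genotype as the only term, all 8 libraries, and Benjamini-Hochberg adjustment over 14433 genes at 0.05. CPM use TMM-scaled library sizes. On simulated counts over 14289 genes for this comparison, the test recovered 73.7% of genes changed by 1 log2 unit. It recovered 97% of those changed by 2, and called 11 unchanged genes. The changed genes were drawn from those with a mean of at least 1 CPM, and each count varied independently of the others. These shares do not give the recovery for the P450 genes. Their median SD of log2 CPM within groups was 0.38, against 0.23 for all genes tested.

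Genes and lists were chosen with earlier results of these data known. Genes described by every library were the most abundant per kilobase in each subfamily, the 8 lowest unadjusted p, those whose groups do not overlap, and, at a mean of at least 1 CPM, the 8 largest and 4 smallest ratios of highest to lowest library; from each list, up to 2 of the lowest p and the most abundant. Further list genes named for their library order (clock, PPAR alpha, androgen, adrenal, adipose, red cell, liver and heat shock genes), partners such as Por, Ephx2, Ahr and Ppara, and sterol, vitamin D and steroid P450s of higher families were chosen after their values were seen. 1 gene that the symbol rule takes, and some genes of the lists, are not reported here. Subfamily sums and library orders carry no test. Alternatives were other scalings and filters, DESeq2 1.42.0, limma-voom (limma 3.58.1), non-robust dispersion, a replicate block, each library left out, and pairs of libraries left out; the pair lowest in Dbp was added after seeing the data. Figures used matplotlib 3.10.9.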

Additional observations from a re-analysis of the deposited data

Results flagged for a closer look

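In 68 groups of 4 libraries examined (34 P450 genes in each label), 1 library lay far from the others of its group, where chance flags about 1 group in 20. It was knockout 3 for Cyp2d22, at 26.3 CPM against 39.2 to 40.4 CPM in the other knockout libraries. Without knockout 3 the log2 difference of Cyp2d22 was 0.66, with an unadjusted p of 0.00979 and an adjusted p of 0.409 in edgeR. Knockout 3 was the lowest knockout library for this gene, so leaving it out was bound to widen the difference. It also raised all genes at an unadjusted p under 0.05 in edgeR from 578 of 14433 to 1252 of 14678.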

How the results depend on the processing

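The count of P450 genes called was 0 under every alternative run, and the median log2 difference of the 34 stayed between -0.06 and 0.13. The count of all genes called was 0 and became 4 with DESeq2, 1 without knockout 2 and 4, and 0 to 2 over the 8 fits that each left out 1 library (1 without knockout 3, 1 without knockout 4, 2 without wildtype 1). Scaling moved the median of all genes by at most 0.03. The correlations of same-numbered deviations were 0.23, -0.23, 0.28 and 0.29, and those of different numbers ran from -0.43 to 0.45. The libraries were not treated as pairs, and these values do not settle whether the replicate numbers pair them. With a replicate block 0 genes were called, 1075 had an unadjusted p under 0.05 against 578 in edgeR, and the median of the P450 genes was 0.04. By unadjusted p, the P450 genes numbered 3, and 1 with no filter, 1 without knockout 2 and 4, 0 without knockout 4 and wildtype 4, and 0 to 7 with 1 library left out. All genes numbered 578, and 879 with no filter, 904 without knockout 2 and 4 and 309 without knockout 4 and wildtype 4. With 1 library left out they numbered 343 to 1252.

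The sign of the log2 difference turned at least once in 16 of the 34 genes. Without knockout 2 and 4 it was 0.025 for Cyp2a4, -0.020 for Cyp4a10, -0.48 for Cyp4a31, -0.33 for Cyp2b10 and 0.17 for Cyp2b9. Without knockout 2 and wildtype 1 it was 0.047 for Cyp2j9 and 0.17 for Cyp2b9. For Cyp4f17 it was 0.0010 with upper-quartile scaling and 0.037 on total counts, and for Cyp2j7 -0.0094 without knockout 4 and wildtype 4. With 1 library left out, values ran from -0.11 to 0.32 for Cyp1a1, -0.021 to 0.15 for Cyp1b1, -0.30 to 0.11 for Cyp2b9, -0.60 to 0.19 for Cyp2c23, -0.051 to 0.48 for Cyp2d9, -0.12 to 0.16 for Cyp2j7, -0.10 to 0.51 for Cyp2j8, -0.29 to 0.090 for Cyp2j9, -0.048 to 0.14 for Cyp2s1, -0.049 to 0.33 for Cyp3a13, -0.18 to 0.30 for Cyp4a31, -0.13 to 0.11 for Cyp4f17 and -0.017 to 0.22 for Cyp4v3. The cause was not tested. With a minimum of 8 summed counts 45 genes would be members, of which 34 were tested, and with 800 there would be 21.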

Other observations

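P450 genes of families 5 and above, which act on sterols, bile acids, retinoids, vitamin D and steroid hormones, were measured beside families 1 to 4. Of 21 listed, 14 were tested and 0 were called by edgeR (1 at an unadjusted p under 0.05, against 4.0% of all genes). Of the 14, 9 were above 0 and the median log2 difference was 0.16. Cyp51, the sterol demethylase of cholesterol synthesis, stood at 633, 526, 641 and 540.2 CPM in knockout 1 to 4 and 666, 580.3, 701 and 732 CPM in wildtype 1 to 4, and Cyp7b1, an oxysterol hydroxylase, at 381, 514, 628 and 449.7 CPM in knockout 1 to 4 and 483, 525, 449 and 516 CPM in wildtype 1 to 4. Cyp27b1, which makes active vitamin D, stood at 2.79, 3.51, 2.0 and 8.55 CPM in knockout 1 to 4 and 2.38, 1.19, 1.39 and 1.94 CPM in wildtype 1 to 4, with knockout 4 far above the rest, a log2 difference of 1.29 (SE 0.44) and an unadjusted p of 0.0149 (adjusted p 0.957 in edgeR). Cyp24a1, which inactivates vitamin D, stood at 27.7, 26.3, 17.4 and 24.0 CPM in knockout 1 to 4 and 44.1, 40.8, 24.4 and 10.5 CPM in wildtype 1 to 4. Cyp11a1, the first enzyme of steroid hormone synthesis, stood at 119 CPM in knockout 2 and 119 CPM in wildtype 1 and at most 1.40 CPM elsewhere. Cyp7a1 and Cyp19a1 had 0 counts in all 8 libraries; the floor of 3 counts is 0.223 CPM in the shallowest.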
